A study of Mus musculus with 10 samples.

Results

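NF-kB pathway and target genes were examined as a list of 31 genes that comprises subunits of the factor, their inhibitors and kinases, the adaptors upstream of them and genes that the factor is known to switch on. Of these, 29 had a probe set annotated to that gene alone, among 18193 genes with such a probe set, and where a gene had several, the one with the highest average over 10 arrays was used. Chuk, the kinase IKK alpha, and Traf3, an adaptor that holds the non-canonical pathway in check, had none and are not analysed here. The subunit gene Nfkb1 is not on the list and had no such probe set either. Tests covered 28 members among the 11472 genes whose signal exceeded 4.43, the median of the whole table on the log2 scale, on at least 5 arrays. Lta did not pass, because it exceeded that level on 2 of 10 arrays.

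Total RNA came from 5 primary B-cell lymphomas of Emu-myc mice, in which the Myc transgene is active in the B lineage. All cells lacked Suv39h1, a histone H3 lysine 9 methyltransferase, and carried a retroviral Bcl2 that protects from apoptosis, selected with puromycin. They grew on irradiated NIH 3T3 fibroblasts as feeder cells. The ADR group was exposed in culture to Adriamycin (ADR, doxorubicin, a DNA-damaging drug) at 0.05 µg/ml for 5 days, and the untreated group was not; each group holds 1 array of each lymphoma, so that n = 5. The lymphomas are named lymphoma_5783, lymphoma_7890, lymphoma_9250, lymphoma_1032 and lymphoma_4936, and values by lymphoma are always listed here in that order. No lymphoma with intact Suv39h1 is part of these data, and the sources used here do not give the animals' ages. Values are deposited RMA signals on the log2 scale, so that a difference of 1 is a doubling, and the 10 arrays set the precision. The array median was 4.15 on the ADR array of lymphoma_1032 and between 4.43 and 4.50 on the other 9 arrays.

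NF-kB is a family of dimeric transcription factors held in the cytoplasm by IkB proteins. In the canonical branch, signals from antigen, Toll-like or TNF-family receptors activate the kinase IKK, which marks IkB for destruction and frees dimers of RelA or c-Rel; in the non-canonical branch, the kinase NIK leads to processing of the Nfkb2 product and to dimers with RelB. Several targets encode the pathway's own brakes, such as IkB alpha and A20, and B cells depend on both branches for survival and maturation.

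Labelled cell identity was checked first. Of 8 B-cell markers 7 had a probe set and all 7 were tested; Cd79b, a chain of the B-cell receptor, had a level of 11.10 ± 1.02 in ADR cells and 11.01 ± 0.69 in untreated cells (SD, n = 5 each). The B-cell list was lowest in lymphoma_1032, where its mean level was 6.66 in ADR cells and 7.45 in untreated cells, against 7.96 to 9.22 in ADR cells and 8.13 to 9.42 in untreated cells of the other lymphomas. Ms4a1, the gene of the B-cell antigen CD20, averaged 4.94 over both arrays of lymphoma_1032 and between 8.23 and 11.07 in the others. Macrophage markers were present as well: the mean level of 12 such genes ranged from 5.61 to 9.09 in ADR cells and from 5.47 to 9.11 in untreated cells, and 4 of the 12, C1qa, C1qb, C1qc and Mrc1, lay below the filter. In these bulk samples, fewer cells of a type and less RNA per cell cannot be told apart.

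Promoter windows of the members show where the factor's own recognition letters lie, and those of the members on which the results below turn are printed here. Windows hold 250 bases before and 50 bases after an annotated start (RefSeq, build GRCm38.p6), were available for 27 of 31 members, and were searched on both strands for the kB consensus, a motif of 10 bases that NF-kB dimers bind. At least 1 match lay in 13 of these 27 members (48.1%), against 9.55% of the 27025 genes with a window; the members include genes listed because they are known targets. Capitals mark the matches, and positions count the annotated start as 0. Nfkbia, the gene of IkB alpha (chr12:55492598-55492897, minus strand), had a match at position -29. Tnfaip3, the gene of A20 (chr10:19015361-19015660, minus strand), had matches at -125 and -12 in the window shown and none in its other window. Ltb, the gene of lymphotoxin beta (chr17:35194257-35194556, plus strand), had a match at -87, and Rel, the gene of c-Rel (chr11:23770920-23771219, minus strand), had overlapping matches at -92 and -91. Nfkbib, the gene of IkB beta (chr7:28766595-28766894, minus strand), is shown because its level was lower with ADR in all 5 lymphomas; no match was found in its window. Each window is written 5′ to 3′ on the strand of its gene.
Nfkbia: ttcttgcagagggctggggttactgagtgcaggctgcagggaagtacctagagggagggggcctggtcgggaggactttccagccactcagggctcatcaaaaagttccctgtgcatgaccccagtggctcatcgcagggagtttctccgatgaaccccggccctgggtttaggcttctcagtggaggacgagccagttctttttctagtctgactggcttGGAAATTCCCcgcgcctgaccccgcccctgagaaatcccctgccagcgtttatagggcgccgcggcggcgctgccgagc
Tnfaip3: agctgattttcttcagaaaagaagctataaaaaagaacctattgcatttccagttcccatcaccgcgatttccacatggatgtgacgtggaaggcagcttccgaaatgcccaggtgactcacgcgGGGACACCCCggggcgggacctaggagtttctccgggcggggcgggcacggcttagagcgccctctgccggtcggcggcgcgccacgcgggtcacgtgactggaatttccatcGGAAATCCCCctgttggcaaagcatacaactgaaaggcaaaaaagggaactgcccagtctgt
Ltb: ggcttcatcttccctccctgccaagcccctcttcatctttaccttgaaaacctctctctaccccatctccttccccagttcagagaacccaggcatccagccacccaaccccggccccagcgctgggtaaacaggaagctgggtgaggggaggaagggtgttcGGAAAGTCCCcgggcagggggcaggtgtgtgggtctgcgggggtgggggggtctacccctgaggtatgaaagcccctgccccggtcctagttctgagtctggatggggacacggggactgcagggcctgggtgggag
Rel: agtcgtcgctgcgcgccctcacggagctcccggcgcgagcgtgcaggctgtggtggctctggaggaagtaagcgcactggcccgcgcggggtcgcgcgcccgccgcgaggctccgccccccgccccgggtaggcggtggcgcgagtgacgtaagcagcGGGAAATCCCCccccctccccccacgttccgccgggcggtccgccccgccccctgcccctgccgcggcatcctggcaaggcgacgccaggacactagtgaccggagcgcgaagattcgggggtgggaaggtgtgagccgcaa
Nfkbib: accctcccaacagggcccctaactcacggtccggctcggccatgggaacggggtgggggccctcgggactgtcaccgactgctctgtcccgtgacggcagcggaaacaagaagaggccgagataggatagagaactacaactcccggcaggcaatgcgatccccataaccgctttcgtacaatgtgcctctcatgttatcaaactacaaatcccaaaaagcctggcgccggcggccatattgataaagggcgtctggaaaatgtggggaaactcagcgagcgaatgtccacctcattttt

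The lymphomas themselves differed in their NF-kB genes. In the moderated F-test of limma over the 5 lymphomas, with treatment in the fit and Benjamini-Hochberg adjustment over all genes, 16 of 28 members were called at an adjusted p under 0.05, which is 57.1% against 26.9% of all genes tested (3089 of 11472). The range between the highest and the lowest lymphoma, each averaged over both of its arrays, had a median of 1.79 over the members and of 0.75 over all genes on the log2 scale. It exceeded 2 in 11 members (39.3%) and in 8.93% of all genes. Called members were Rel, Relb, Nfkbia, Nfkbie, Nfkbiz, Bcl3, Ikbke, Traf1, Tnfaip3, Tnip1, Zfp36, Ltb, Cd83, Ier3, Tnfaip2 and Gadd45b. The test compares these 5 lymphomas against the residual of the paired fit, with 1 culture per lymphoma and treatment. Without lymphoma_1032, 8 of the 28 members and 1179 genes were called.

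**Figure D1:**
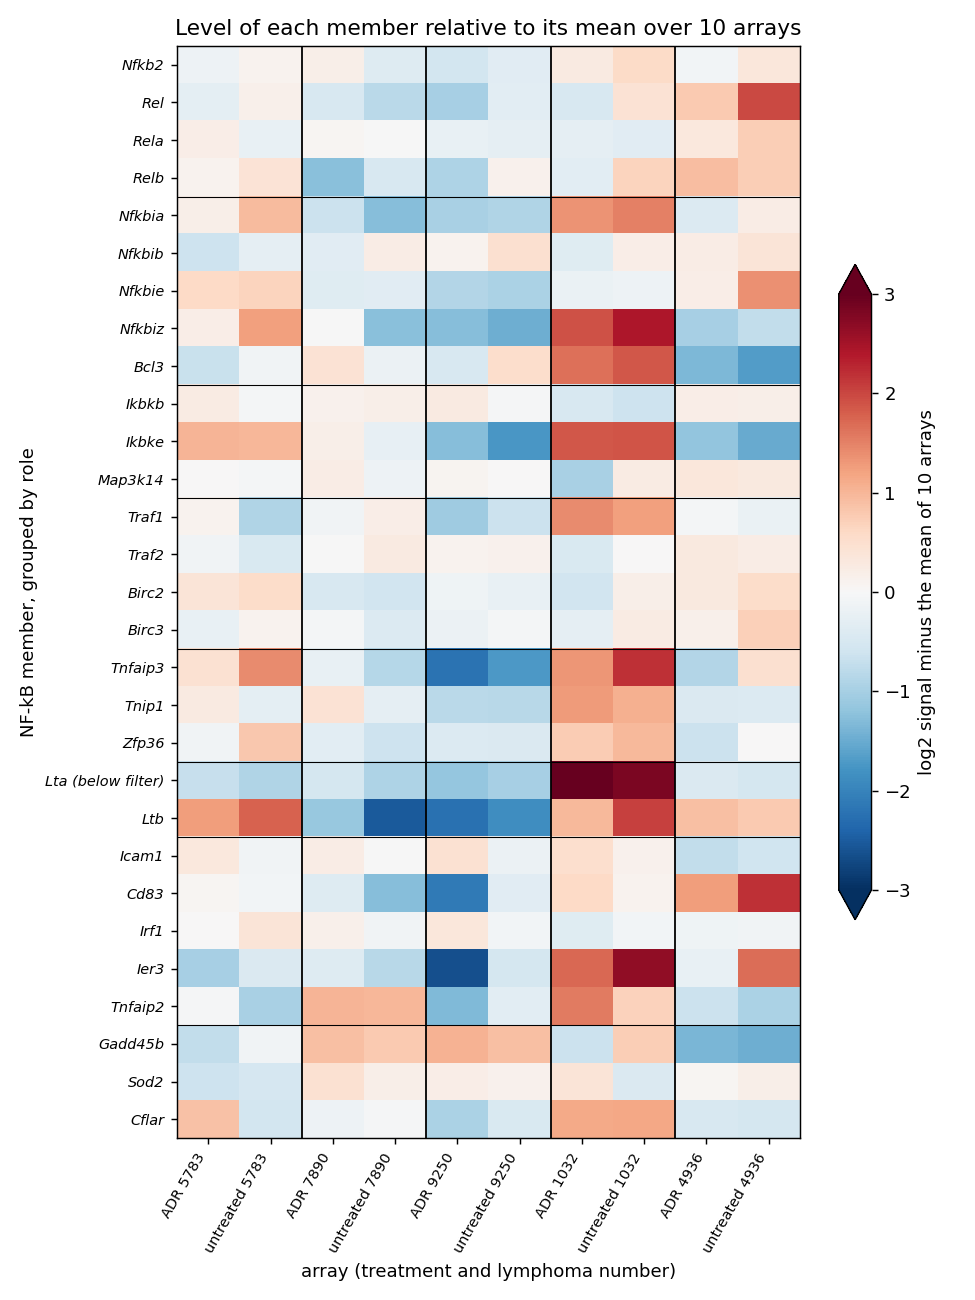
Log2 signal of each of 29 members (rows, grouped by role) minus its mean over 10 arrays (columns, ADR left of untreated within each lymphoma). Red is above and blue below the member's mean; colours mostly follow the lymphoma, with Nfkbiz, Bcl3, Ikbke, Tnfaip3, Lta, Ltb and Ier3 high on both arrays of lymphoma_1032.

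Each lymphoma was then set against the mean of the other 4 in the same fit. In lymphoma_1032, 12 members were higher (42.9%, against 12.9% of all genes) and 1 was lower (3.57%, against 16.5%). In lymphoma_9250, 0 were higher (2% of all genes) and 8 were lower (28.6%, against 5.2%). In lymphoma_4936, 5 were higher (17.9%, against 5.68%) and 4 lower (14.3%, against 7.4%). Few members stood out in the remaining lymphomas: in lymphoma_5783, 1 was higher (1.65% of all genes) and 0 lower (0.549%), and in lymphoma_7890, 0 were higher (1.68%) and 1 lower (1.56%). Averaged over both arrays, lymphoma_1032 had the highest level of 14 of the 28 members (50%, against 23.6% of all genes) and lymphoma_9250 the lowest level of 13 (46.4%, against 14.2%). Without lymphoma_1032, 3 members were lower in lymphoma_9250, and the share of all genes lower in that fit was not counted.

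**Figure D2:**
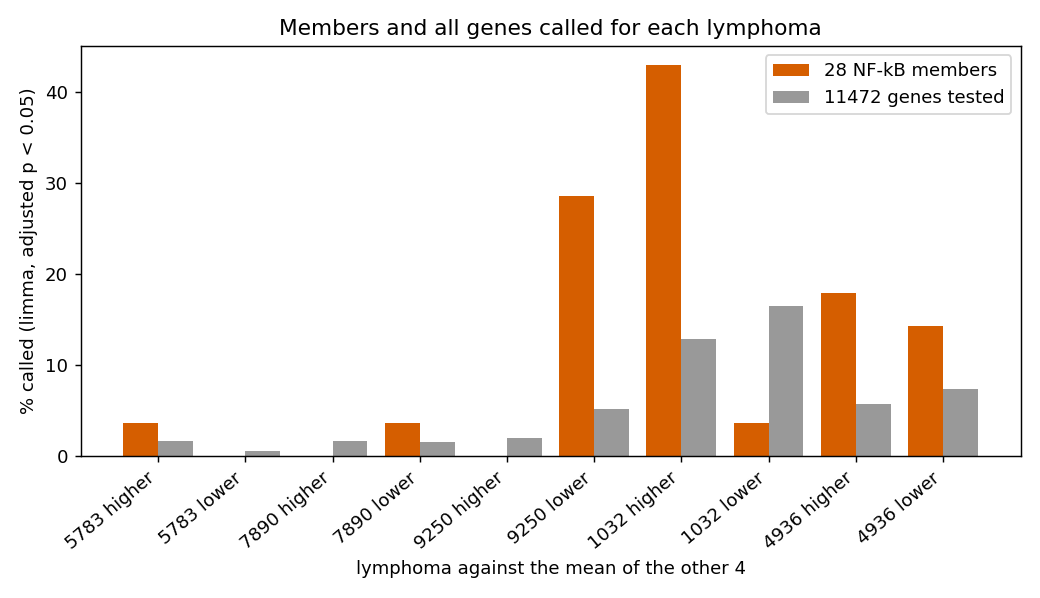
Share of the 28 members (orange) and of the 11472 genes tested (grey) called higher or lower in each lymphoma against the mean of the other 4 (limma, adjusted p < 0.05). The tallest orange bars are 42.9% higher in lymphoma_1032 and 28.6% lower in lymphoma_9250.

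Among the factor subunits, Rel and Relb were highest in lymphoma_4936. Rel, which encodes the lymphoid subunit c-Rel, had levels of 6.29, 6.12, 5.61, 6.11 and 7.39 in ADR cells, against 6.76, 5.79, 6.29, 7.03 and 8.58 in untreated cells. Both arrays of lymphoma_4936 lay above every array of the other lymphomas, by 1.74 ± 0.27 (SE) against the mean of the other 4 (limma adjusted p = 0.00877). Relb, the partner in non-canonical dimers, had levels of 6.59, 5.23, 5.56, 6.18 and 7.42 in ADR cells, against 6.90, 5.997, 6.61, 7.15 and 7.23 in untreated cells. Lymphoma_4936 was again higher, by 1.05 ± 0.25 (adjusted p = 0.0342), and lymphoma_7890 lowest.

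Rela, which encodes the main activating subunit, measured 9.005, 8.86, 8.58, 8.54 and 9.12 in ADR cells, against 8.58, 8.77, 8.52, 8.45 and 9.53 in untreated cells. Its range over lymphomas was 0.83 and was not called in the F-test (adjusted p = 0.0953), although lymphoma_4936 was higher than the mean of the other 4 by 0.66 ± 0.17 (adjusted p = 0.0465). Nfkb2, the precursor subunit of the non-canonical branch, measured 7.23, 7.55, 6.82, 7.65 and 7.30 in ADR cells, against 7.48, 6.995, 7.04, 7.95 and 7.71 in untreated cells. Its range was 0.87 (adjusted p = 0.165), and the treatments overlapped. The 5 higher members of lymphoma_4936 (Rel, Rela, Relb, Nfkbie and Cd83) thus include 3 of the 4 subunits measured. Their number depended on the arrays used and their weights: it was 2 without lymphoma_7890, 3 without lymphoma_9250 and 1 with array weights. The share of all genes higher in lymphoma_4936 was not counted in these fits.

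Of the 5 genes of the IkB family, 4 were called between lymphomas, against 2 of the 4 subunits measured. Nfkbia, whose product IkB alpha is both the main cytoplasmic inhibitor and a rapid target of the factor, had levels of 12.25, 11.45, 11.10, 13.44 and 11.68 in ADR cells, against 13.04, 10.82, 11.18, 13.59 and 12.30 in untreated cells. Lymphoma_1032 was highest in both treatments, by 1.78 ± 0.26 against the mean of the other 4 (adjusted p = 0.00354), and lymphoma_9250 was lower, with a difference of -1.18 ± 0.26 (adjusted p = 0.0397). Nfkbiz, an inducible nuclear IkB, had levels of 10.67, 10.47, 9.19, 12.38 and 9.47 in ADR cells, against 11.70, 9.21, 9.01, 12.90 and 9.74 in untreated cells. On the probe set used, lymphoma_1032 was highest (2.71 ± 0.38, adjusted p = 0.00318) and lymphoma_9250 lowest (-1.72 ± 0.38, adjusted p = 0.0397). Another Nfkbiz probe set, above the filter level on all 10 arrays, had a range of 1.15. It averaged 7.27 in lymphoma_5783, 7.13 in lymphoma_4936 and 6.88 in lymphoma_1032, and was also lowest in lymphoma_9250, at 6.12. A further probe set had lymphoma_1032 highest and lymphoma_9250 lowest, with a range of 2.89. The mean of the Nfkbiz probe sets had a range of 2.40 (F-test adjusted p = 0.0127).

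Bcl3, a nuclear IkB that acts as a coactivator with p50 or p52 dimers, had levels of 7.70, 8.81, 7.89, 10.02 and 7.04 in ADR cells, against 8.26, 8.21, 8.91, 10.23 and 6.70 in untreated cells. It was higher in lymphoma_1032 (2.19 ± 0.30, adjusted p = 0.00302) and lower in lymphoma_4936 (-1.89 ± 0.30, adjusted p = 0.00951). Nfkbie, which encodes IkB epsilon, had levels of 7.94, 6.98, 6.45, 7.15 and 7.55 in ADR cells, against 8.01, 7.01, 6.40, 7.19 and 8.72 in untreated cells. It was higher in lymphoma_4936 (0.99 ± 0.24, adjusted p = 0.0395) and lower in lymphoma_9250 (-1.14 ± 0.24, adjusted p = 0.0371). The lymphoma with the highest level was therefore not the same for all IkB genes.

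Of the 3 kinases, 1 was called. Ikbke, an inducible IKK-related kinase, had levels of 8.56, 7.71, 6.27, 9.41 and 6.35 in ADR cells, against 8.54, 7.30, 5.80, 9.43 and 6.03 in untreated cells. The order of the lymphomas was the same in both treatments, with the smallest adjusted p of any member in the F-test (adjusted p = 0.000379). Lymphoma_1032 was higher by 2.35 ± 0.15, and lymphoma_9250 and lymphoma_4936 were lower, with differences of -1.88 ± 0.15 and -1.69 ± 0.15 (adjusted p = 0.000257, 0.00157 and 0.00193 in this order). Ikbkb, the catalytic subunit of the canonical kinase, had levels of 9.45, 9.33, 9.47, 8.72 and 9.40 in ADR cells, against 9.13, 9.38, 9.17, 8.57 and 9.39 in untreated cells. It was the only member called lower in lymphoma_1032 (-0.70 ± 0.14, adjusted p = 0.0101). Map3k14, which encodes NIK, measured 6.23, 6.44, 6.31, 5.26 and 6.56 in ADR cells, against 6.17, 6.06, 6.23, 6.46 and 6.52 in untreated cells, a range over lymphomas of 0.69 (adjusted p = 0.579). A second Map3k14 probe set had a range of 1.43, and the mean of the Map3k14 probe sets had a range of 0.85 (F-test adjusted p = 0.304).

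All 3 feedback genes were called between lymphomas. Tnfaip3, the gene of the ubiquitin-editing brake A20, had levels of 9.14, 8.46, 6.46, 10.01 and 7.80 in ADR cells, against 10.08, 7.83, 6.96, 10.88 and 9.15 in untreated cells. Its range of 3.73 ran between lymphoma_1032 (2.21 ± 0.33 against the mean of the other 4, adjusted p = 0.00395) and lymphoma_9250 (-2.46 ± 0.33, adjusted p = 0.00808). This rests on 1 probe set: a second Tnfaip3 probe set, above the filter level on all 10 arrays, had a range of 0.43 with lymphoma_9250 highest, and the mean of the Tnfaip3 probe sets had a range of 1.84 (adjusted p = 0.0175). Tnip1, which encodes the A20-binding protein ABIN-1, had levels of 9.99, 10.16, 8.92, 10.99 and 9.30 in ADR cells, against 9.44, 9.46, 8.89, 10.80 and 9.31 in untreated cells. The same pair stood at the ends, with 1.47 ± 0.18 in lymphoma_1032 (adjusted p = 0.00217) and -1.03 ± 0.18 in lymphoma_9250 (adjusted p = 0.0188). Zfp36, which encodes the RNA decay factor tristetraprolin, was higher in lymphoma_1032 by 1.08 ± 0.24 (adjusted p = 0.0145), where its levels were 9.31 in ADR and 9.51 in untreated cells.

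The lymphotoxin ligands and the early response gene Ier3 also spread widely over the lymphomas. Ltb, which forms the membrane ligand of the lymphotoxin beta receptor, had levels of 9.52, 7.13, 6.02, 9.25 and 9.17 in ADR cells, against 10.04, 5.75, 6.40, 10.33 and 9.04 in untreated cells. Lymphoma_7890 and lymphoma_9250 lay below the other 3 lymphomas on all arrays, and both were called lower, lymphoma_9250 with a difference of -2.57 ± 0.40 (adjusted p = 0.0137) and lymphoma_7890 with a difference of -2.28 ± 0.40 (adjusted p = 0.0296). Lta, the gene of lymphotoxin alpha, had levels of 7.90 in ADR and 7.41 in untreated cells of lymphoma_1032, against at most 4.15 in ADR and at most 4.05 in untreated cells of the others; it was not tested. Ier3, a stress response gene, had levels of 7.63, 8.25, 5.99, 10.35 and 8.42 in ADR cells, against 8.21, 7.79, 8.11, 11.30 and 10.30 in untreated cells. Its range of 3.77 was the largest among tested members, with lymphoma_1032 higher by 2.73 ± 0.45 (adjusted p = 0.0052).

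Other targets followed several orders. Cd83, a surface marker of activated B cells, was higher in lymphoma_4936 by 2.16 ± 0.47 (adjusted p = 0.0268), with levels of 10.06 in ADR and 11.00 in untreated cells there. Icam1, the adhesion molecule, had levels of 8.97, 8.90, 9.13, 9.18 and 7.92 in ADR cells, against 8.57, 8.67, 8.50, 8.79 and 8.06 in untreated cells; lymphoma_4936 was lower, with a difference of -0.85 ± 0.17 (adjusted p = 0.0201). Gadd45b, a stress-induced signalling regulator, was lower in lymphoma_4936 by -1.78 ± 0.30 (adjusted p = 0.0126). Traf1, a TNF receptor adaptor, Tnfaip2 and Cflar, which encodes the caspase-8 inhibitor c-FLIP, were higher in lymphoma_1032 by 1.67 ± 0.26, 1.40 ± 0.35 and 1.44 ± 0.32 (adjusted p = 0.00459, 0.0217 and 0.0157). Each also has a probe set with another lymphoma highest. For Traf1 it averaged 5.37 in lymphoma_4936 and 5.27 in lymphoma_1032, and for Tnfaip2 9.52 in lymphoma_7890 and 9.46 in lymphoma_1032. For Cflar it averaged 7.34 in lymphoma_5783 and 6.70 in lymphoma_1032, while another Cflar probe set was highest in lymphoma_1032, at 6.56.

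The members not called in the F-test were Nfkb2, Rela, Nfkbib, Ikbkb, Map3k14, Traf2, Birc2, Birc3, Icam1, Irf1, Sod2 and Cflar. Their ranges over lymphomas lay between 0.42 and 1.86 (adjusted p between 0.0509 and 0.579), against 1.34 to 3.77 in the called members. Birc2 and Birc3 encode the ubiquitin ligases cIAP1 and cIAP2 that keep NIK low together with Traf2, Irf1 is an interferon-response factor, and Sod2 is the mitochondrial superoxide dismutase.

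Cell type markers also differed between the lymphomas. Macrophage markers had list means of 8.06, 9.09, 5.61, 8.56 and 5.72 in ADR cells, against 8.08, 9.11, 5.85, 7.98 and 5.47 in untreated cells, and all 8 tested ones were called in the F-test. Fibroblast markers had list means of 6.82, 4.86, 5.00, 5.84 and 4.99 in ADR cells, against 6.65, 4.83, 4.93, 5.66 and 4.86 in untreated cells. Of 6 tested ones 5 were called, where 26.9% of all genes were. Neutrophil markers, of which 3 of 8 were tested, had list means of 5.05, 4.77, 4.18, 7.42 and 4.25 in ADR cells, against 4.61, 4.71, 4.29, 6.35 and 4.18 in untreated cells. Lymphoma_1032 thus combined the highest neutrophil and the lowest B-cell list means with the highest level of 14 members. That neutrophil mean came from Lcn2, S100a8, Mmp9 and Mmp8, at 13.17, 10.25, 8.66 and 8.49 over both arrays of lymphoma_1032. Elane, Mpo, S100a9 and Ltf averaged between 2.99 and 4.18 there, below the filter level of 4.43. Averaged over both arrays, Tnfaip2 had levels of 6.73, 8.23, 6.41, 8.35 and 6.44 and Nfkbia of 12.65, 11.13, 11.14, 13.51 and 11.99. The part of the marker cells in the differences between lymphomas was not tested.

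**Figure D3:**
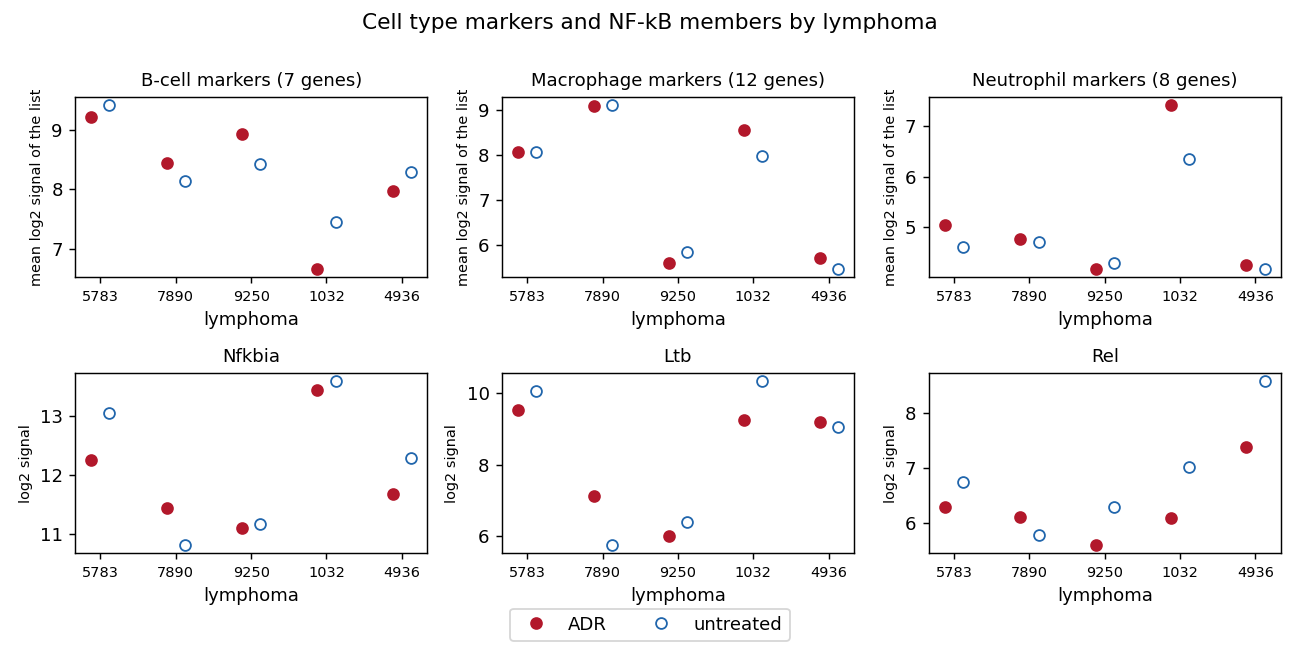
Mean log2 signal of 3 marker lists (top) and log2 signal of Nfkbia, Ltb and Rel (bottom) in ADR (filled) and untreated cells (open) of each lymphoma, 1 array per point. Neutrophil markers and Nfkbia are highest in lymphoma_1032, macrophage markers in lymphoma_7890, and Rel in lymphoma_4936.

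The design sets ADR cells against untreated cells of the same lymphoma, to learn how lymphomas that lack Suv39h1 respond to a drug known to drive Bcl2-protected lymphomas with intact Suv39h1 into senescence. No member passed: 0 of 28 were called in the paired limma fit (adjusted p between 0.565 and 0.998), as 0% of the 11472 genes were, of which 973 had an unadjusted p under 0.05. On average 10 members were higher and 18 lower with ADR, with a median difference of -0.13 over the members and of -0.02 over all genes, of which 55.2% were lower. At an unadjusted p under 0.05 stood 4 members, all lower with ADR, namely Rel, Relb, Nfkbib and Ier3; this is 14.3%, against 4.52% of all genes, while 0 members were higher at that level, against 3.97% of all genes. ADR and untreated levels overlapped in all 29 members, but overlap was not counted over all genes, so this cannot be read as a trait of the members. Without lymphoma_7890 the median difference of the members was -0.30, and without lymphoma_1032 it was -0.02.

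**Figure D4:**
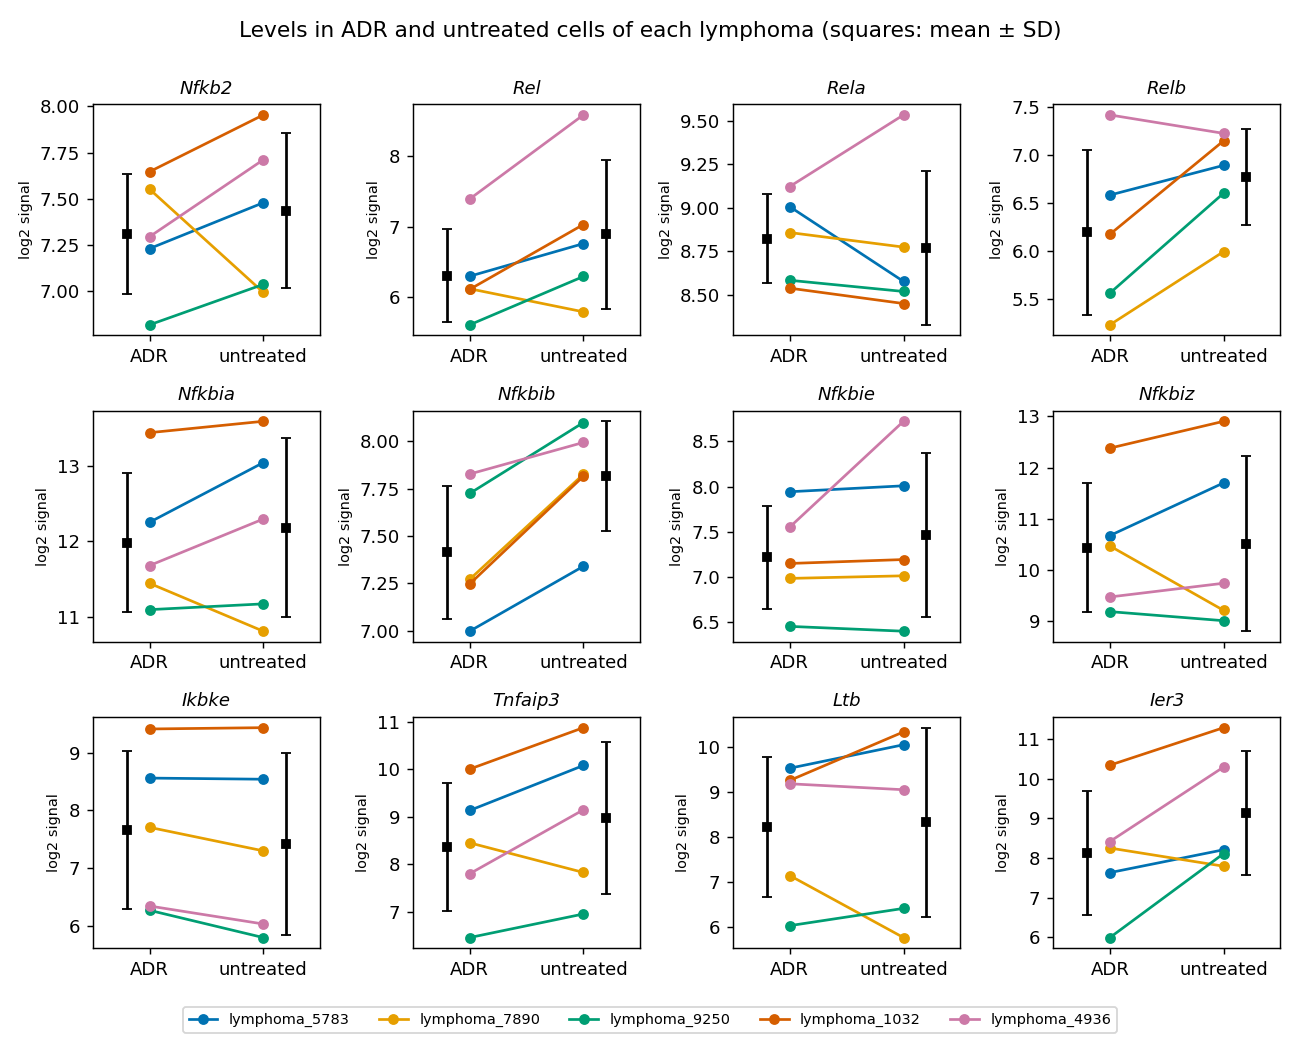
Log2 signal of 12 members in ADR (left) and untreated cells (right) of each lymphoma, joined by a line per lymphoma; squares and bars are the mean ± SD of 5 arrays. Lines lie far apart for Nfkbia, Nfkbiz, Ikbke, Tnfaip3 and Ltb, and of the 12 shown, Nfkbib alone is lower with ADR in all 5 lymphomas.

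Nfkbib was the single member with 1 sign in all 5 lymphomas, lower in each; over all genes 4.82% were lower and 4.67% higher in all 5, and 0 members were higher in all 5. Its product IkB beta is an inhibitor that, unlike IkB alpha, is not rapidly remade after a signal. The levels were 6.998, 7.27, 7.72, 7.25 and 7.83 in ADR cells, against 7.34, 7.83, 8.10, 7.82 and 7.99 in untreated cells. The treatments overlap as groups, and within each lymphoma ADR lies below by 0.17 to 0.57. The mean difference was -0.40 ± 0.17 (SD, n = 5; 95% interval of the fit from -0.66 to -0.14), with limma adjusted p = 0.565. With the mean of its probe sets it was -0.18, since the second probe set, above the filter level on 0 arrays, had a difference of 0.04.

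Among the subunits, Rel and Relb had the larger differences with ADR. Rel averaged 6.30 ± 0.66 in ADR and 6.89 ± 1.06 in untreated cells, a difference of -0.59 ± 0.58 (adjusted p = 0.565), lower in 4 lymphomas and 0.33 higher in lymphoma_7890. Relb averaged 6.20 ± 0.86 in ADR and 6.78 ± 0.50 in untreated cells, a difference of -0.58 ± 0.52 (adjusted p = 0.565), lower in 4 lymphomas and 0.19 higher in lymphoma_4936. Rela and Nfkb2 had mean differences of 0.05 ± 0.30 and -0.13 ± 0.39 (adjusted p = 0.928 and 0.819). Of the 4 subunits, 3 were lower on average.

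Several feedback and early response genes were higher with ADR in lymphoma_7890 and lower in lymphoma_5783 and lymphoma_1032. Nfkbia had differences of -0.79, 0.63, -0.08, -0.15 and -0.61, and Nfkbiz of -1.03, 1.26, 0.18, -0.52 and -0.27. Tnfaip3 had differences of -0.95, 0.62, -0.50, -0.87 and -1.35, with means of 8.37 ± 1.34 in ADR and 8.98 ± 1.60 in untreated cells (-0.61 ± 0.75, adjusted p = 0.577). In Nfkbia and Tnfaip3 lymphoma_7890 alone was higher with ADR; in Nfkbiz lymphoma_9250 was higher as well. Ier3 had differences of -0.58, 0.46, -2.12, -0.95 and -1.88, the largest mean difference of any member (-1.01 ± 1.04, adjusted p = 0.565). Ltb had differences of -0.52, 1.38, -0.38, -1.08 and 0.13, and Zfp36 of -0.91, 0.31, 0.02, -0.19 and -0.66. With 1 pair per lymphoma, a difference in response between lymphomas could not be tested.

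Counted by lymphoma, 21 of 28 members were higher with ADR in lymphoma_7890, with a median difference of 0.29, where 48.4% of all genes were higher and their median was -0.01. In lymphoma_5783, 17 were lower and 11 higher, where 53.7% of all genes were higher (median -0.21, against 0.04 over all genes). In lymphoma_9250, 15 were lower and 13 higher, where 47% of all genes were higher (median -0.05, against -0.02). In lymphoma_4936, 17 were lower and 11 higher, where 56.4% of all genes were higher (median -0.13, against 0.06). In lymphoma_1032, 20 were lower and 8 higher, where 34.4% of all genes were higher. The median was -0.24, but the median over all genes was -0.17 there, and the ADR array of this pair had the low overall median given above.

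**Figure D5:**
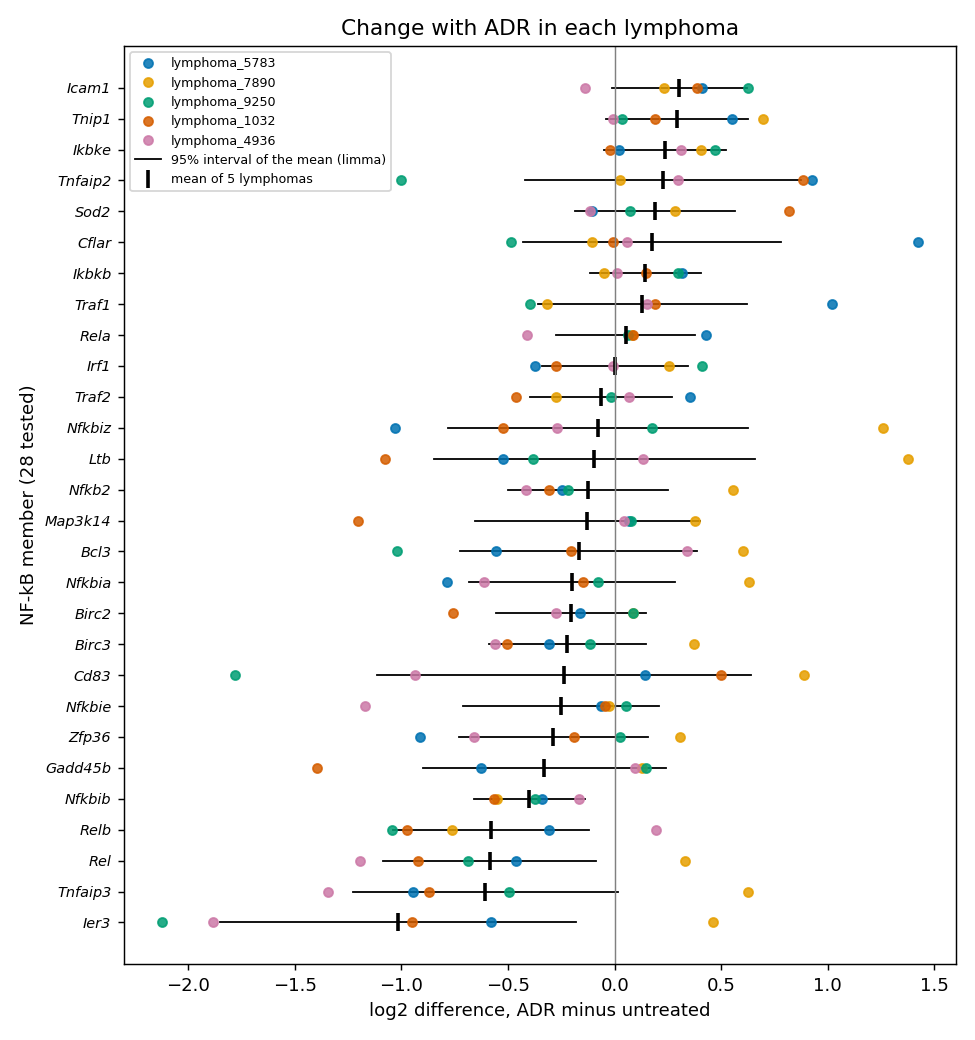
Log2 difference of ADR minus untreated for each of 28 tested members (rows, ordered by mean); points are the 5 lymphomas, ticks their mean and black lines the 95% interval of the limma fit. Means run from -1.01 for Ier3 to 0.30 for Icam1; points of Nfkbib all lie below 0, and lymphoma_7890 lies above 0 in 21 rows.

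Members higher on average were led by Icam1, Tnip1 and Ikbke. Icam1 averaged 8.82 ± 0.52 in ADR and 8.52 ± 0.28 in untreated cells, a difference of 0.30 ± 0.28 with 4 lymphomas higher (adjusted p = 0.577). Tnip1 had a difference of 0.29 ± 0.31, also higher in 4 lymphomas (adjusted p = 0.587), and Ikbke of 0.24 ± 0.23 (adjusted p = 0.602). Of the other kinase genes and the survival and stress genes, Ikbkb had a difference of 0.14 ± 0.16, Map3k14 of -0.13 ± 0.62, Sod2 of 0.19 ± 0.39, Cflar of 0.17 ± 0.73 and Gadd45b of -0.33 ± 0.68. Of 3 further Ikbkb probe sets above the filter level 1 shared its sign; another had a difference of -0.66 ± 0.43 and was lower in all 5 lymphomas, and the mean over all Ikbkb probe sets was -0.07. Over all members, 18 of 25 further probe sets above the filter level had the sign of the one used.

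Marker lists had 0 genes called with ADR, but their levels were not even. Over all 12 macrophage markers the list means of the difference were -0.02, -0.02, -0.24, 0.58 and 0.24 by lymphoma. The 8 in the fit averaged higher in ADR than in untreated cells, with list means of 1.17, 0.17, -0.21, 1.07 and 0.41 by lymphoma. The 4 below the filter averaged lower, with differences of -0.79 for C1qa, -0.63 for C1qb, -0.60 for C1qc and -0.86 for Mrc1. Their largest falls were in lymphoma_5783, at -2.91, -2.40, -1.30 and -2.94 in this order, so the mean of -0.02 there joins opposite changes. Over all 8 neutrophil markers the list means were 0.44, 0.06, -0.11, 1.07 and 0.07, and over all 11 fibroblast markers they were 0.17, 0.03, 0.07, 0.18 and 0.13. For those in the fit, the list means were 0.80, 0.11, -0.19, 1.82 and 0.41 over 3 neutrophil markers. They were 0.79, -0.03, -0.08, 0.46 and 0.30 over 6 fibroblast markers. Over 6 T-cell markers they were -0.03, -0.15, 0.03, -0.52 and -0.11. Traf1, Tnfaip2 and Cflar had their highest differences with ADR in lymphoma_5783, of 1.02, 0.93 and 1.42. Their relation to the marker levels was not tested. B-cell markers had list means of the difference of -0.20, 0.31, 0.50, -0.79 and -0.32, above 0 in lymphoma_7890 and lymphoma_9250.

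Genes of the pathway outside the list were read in the same fit. Of 13 tested receptors 0 were called in either direction and 7 were higher on average; Ltbr, the receptor of lymphotoxin, had a difference of 0.58 ± 0.26, Tnfrsf1a, a TNF receptor, of 0.30 ± 0.26, and the DNA sensor Tlr9 of -0.32 ± 0.35. Of 15 adaptors and kinases 0 were called and 9 were higher; Ikbkg, the regulatory subunit NEMO of IKK, had a difference of 0.39 ± 0.26, the kinase gene Map3k7 of 0.32 ± 0.37 and the Toll-like receptor adaptor gene Myd88 of 0.26 ± 0.27, each higher in all 5 lymphomas. The B-cell receptor arm had 7 tested genes, 0 called and 4 higher, with Syk at 0.34 ± 0.34, Btk at 0.29 ± 0.38 and Prkcb at -0.39 ± 0.58. Among 14 ubiquitin editors and other brakes 0 were called and 9 were lower, with Rnf11 at 0.32 ± 0.28, Otud7b at -0.26 ± 0.25 and Commd1 at -0.23 ± 0.24. These named genes had the smallest p of their list, and none passed (adjusted p between 0.565 and 0.614).

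Of 17 other target genes 0 were called with ADR and 11 were lower on average. Slc2a6, a sugar transporter gene, averaged 7.34 ± 0.54 in ADR and 6.54 ± 0.48 in untreated cells, a difference of 0.80 ± 0.55 that was higher in all 5 lymphomas. Ptgs2, the gene of cyclooxygenase-2, had a difference of 1.01 ± 0.92 and Fas, a death receptor gene, of 0.36 ± 0.32, each higher in all 5 lymphomas (adjusted p between 0.565 and 0.577 for the 3 genes). In the F-test between lymphomas, 11 of these 17 targets, 6 of 13 receptors, 5 of 15 adaptors and kinases, 2 of 7 genes of the B-cell receptor arm and 2 of 14 brakes were called, where 26.9% of all genes were.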

How the data were processed

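The deposited log2 signals are the authors' own; per the submitters' processing notes, RMA and Partek were used. The sources used here do not give versions or settings, and the log base was read from the range of the values. Of 45101 probe sets, 34945 carried a single gene symbol in GEO's platform table. No further normalization was applied. Genes above 4.43 on at least 5 of 10 arrays entered a linear model with a term for the lymphoma (limma 3.58.1 in R 4.3.3, moderated by eBayes); p-values are two-sided and Benjamini-Hochberg adjusted over all 11472 genes, with a threshold of 0.05. The same fit gave the F-test between lymphomas and the contrast of each lymphoma with the mean of the other 4. The fit was tested on simulated data.

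The lymphoma number in the titles pairs the arrays, which the design text calls matched; across genes, the 2 arrays of a lymphoma deviated together, with correlations between 0.51 and 0.79. The members and gene lists were chosen with earlier results of these data known. Arrays given in full are those of a set of 10 members, of members with 1 sign in all lymphomas, of the 3 largest mean differences each way and of the 6 largest ranges called between lymphomas; of other lists the 3 smallest p were named. Other members and markers were named after their values were seen. Promoter windows came from RefSeq (GRCm38.p6). Python 3.11.15 with pandas 2.3.3 and matplotlib 3.10.9 handled tables and plots. The alternatives concern the block, the filter, the probe set, the normalization, the prior, array weights and each lymphoma left out; running them for single-lymphoma contrasts was chosen after seeing the data.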

Additional observations from a re-analysis of the deposited data

Results flagged for a closer look

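Each member's 5 ADR levels, 5 untreated levels and 5 differences were examined for a value far from the others, 87 groups in all, and 10 stood apart. The cut-off marks about 1 group in 20 by chance when the values are independent and normally distributed. The differences come from the same levels, so the 87 groups are not independent. The share over all genes was not counted, so an excess among the members cannot be read from this. Of these 5 belonged to lymphoma_1032. There, Lta had a level of 7.90 in ADR and of 7.41 in untreated cells, where the nearest other lymphoma had 4.15 and 4.05. Ikbkb had an ADR level of 8.72, with the nearest at 9.33, and Map3k14 had an ADR level of 5.26, with the nearest at 6.23, and a difference of -1.20, with the nearest at 0.04. On a second Map3k14 probe set, above the filter level on all 10 arrays, the difference was -1.08 in lymphoma_1032 and -0.81 in lymphoma_4936. The ADR array of lymphoma_1032 also had the lowest array median, 4.15, and its part in the low Ikbkb and Map3k14 levels was not tested. In lymphoma_4936, Nfkbie had a difference of -1.17, with the nearest at -0.07, and Icam1 an ADR level of 7.92, with the nearest at 8.90. In lymphoma_7890, Nfkb2 had a difference of 0.56, with the nearest at -0.22. In lymphoma_5783, Cflar had a difference of 1.42, with the nearest at 0.06, and Irf1 an untreated level of 8.42, with the nearest at 7.98.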

How the results depend on the processing

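Under 13 alternatives, 0 genes were called for ADR against untreated in any, including the fit with no replicate block (smallest adjusted p = 0.99988, against 0.551 with the block). The tests between lymphomas need the block and were not run without it. The median difference of the members lay between -0.30 and -0.02 when single lymphomas were left out. Of 363 recomputed member differences 344 kept their sign and side of the threshold. Those that turned, none of them called in either setting, were Ikbkb with the mean of all probe sets (-0.068), Nfkbiz and Traf2 with each array centred (0.0032 and 0.015), and Nfkbiz, Map3k14 and Ltb with array weights (0.19, 0.035 and 0.17). With single lymphomas left out, differences that turned ranged from -0.41 to 0.16 for Nfkbiz, -0.17 to 0.033 for Traf2, -0.26 to 0.14 for Map3k14, -0.46 to 0.15 for Ltb, -0.044 to 0.17 for Rela, -0.093 to 0.26 for Traf1, -0.14 to 0.34 for Cflar, -0.10 to 0.095 for Irf1, -0.36 to 0.043 for Bcl3 and -0.52 to 0.15 for Cd83. Between lymphomas, 1179 to 2796 genes and 8 to 17 members were called with 1 lymphoma left out, the lowest counts without lymphoma_1032 and the highest without lymphoma_5783. The other alternatives gave 15 to 21 members, and the number of genes called moved as well. Under the stricter filter 20 of 27 members and 3148 of 7945 genes were called. With the mean of all probe sets these were 18 of 28 and 2811 of 10470, and with no filter 16 of 28 and 2936 of 18193. Ikbke, Tnfaip3 and Ltb were called in all 12 alternatives that allow this test. Members higher in lymphoma_1032 numbered 11 to 13 with 1 other lymphoma left out and 8 with array weights, members lower in lymphoma_9250 3 to 9 (3 without lymphoma_1032), and members higher in lymphoma_4936 2 to 5, and 1 with array weights. For these contrasts all genes were not counted, so shifts of the members cannot be told from shifts of all genes. The cause of these shifts was not tested. With 5 pairs, and 1 array per lymphoma and treatment, signal near the filter level limits Lta and the dim probe sets.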
